A study of Mus musculus with 17 samples.

Results

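The regions described here are stretches of mouse liver chromatin enriched for histone H3 acetylated at lysine 9 (H3K9ac) whose deposited annotation places them in a 3' untranslated region (3' UTR). They were chosen by annotation and size alone: a 3' UTR label, more than 1000 bases to the nearest transcription start site, and a length below 4000 bases. Of 57499 regions in the table, 1444 carried the label, 56 of these lay within 1000 bases of a start site and 20 of the others were too long, which left 1368 regions (2.38% of all). They fell in the 3' UTRs of 1212 genes, 1066 with 1 region, 123 with 2, 17 with 3 and 6 with 4, and 19 regions lay in the UTRs of 2 genes at once.

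The study compared livers of C57BL/6 mice, an inbred laboratory strain, kept for 10 weeks on a high-fat diet (HFD, 60% of calories from fat) or a control diet (CD, 18% from fat). H3K9ac was profiled by chromatin immunoprecipitation and sequencing in 3 libraries per diet (CD A, C and D, HFD A, B and D), and RNA in 4 per diet (A to D). Every library came from whole liver tissue, and the labels give no sex, age, hour of collection or feeding state. They do not say whether each letter marks a separate animal, so p-values measure the spread between these libraries. Whether a letter stands for the same animal in both assays is not stated either. H3K9ac totals ran from 9255635 to 12149497 counts and RNA totals from 31802893 to 37596560 counts per library. A control-diet input library and 2 open-chromatin libraries were not analysed here.

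H3K9ac is laid down by lysine acetyltransferases such as GCN5 and PCAF and removed by histone deacetylases, and it is concentrated on the nucleosomes that flank the start sites of active genes. It also marks many active enhancers. The 3' UTR is the stretch of an mRNA after the stop codon, where microRNAs and RNA-binding proteins act on stability and translation. The DNA behind it is ordinary chromatin at the far end of a gene, and in compact parts of the genome it can lie close to the promoter of a neighbouring gene.

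The gene models of the RNA table allowed the label to be checked for 1206 of the regions, in 1220 pairs of a region and a gene. The middle base lay in an exon in 1220 of 1220 pairs, a median of 817 bases before the gene's end (quartiles 413 and 1678), against a median gene span of 18960 bases. In 699 pairs (57.3%) it lay within 1 kb of the end, and 197 pairs (16.1%) had the end inside the region. The regions were short, with a median of 464 bases (quartiles 317 and 782, range 213 to 3965), and 1127 (82.4%) were under 1000 bases.

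A start site of the host gene itself was the nearest one for 580 regions, at a median of 8785 bases. For the other 788 the nearest start belonged to another gene, at a median of 7714 bases, and 184 of these lay upstream of that start within 5000 bases. The median level was nearly equal for both kinds, 4.15 and 4.11 CPM per kb (read counts scaled to library size and divided by the region's length in kilobases). By distance to any start, 81 regions lay at 1000 to 2000 bases, 348 up to 5000, 356 up to 10000 and 583 beyond.

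Distances ran from the middle of a region, so a long region could hold a start site and still pass the rule. Of the RefSeq gene starts in the table used (GRCm38.p6), 4 lay inside a region. In the regions named for Cby1 and Ppfia4 the start belonged to another gene (Gm30877 and Gm32267). In those of Id3 and Ccdc85b it was the start of the same gene. Id3 encodes an inhibitor of basic helix-loop-helix transcription factors, and its gene is so short that 1 region (chr4:136143308-136146959) covered its start as well as its end. By the gene models of the RNA table, 4 pairs had the host gene's start inside the region. The regions of Id1 (2452 bases long, own start 1052 bases from the middle) and Fam89b (2699 bases, 1106) also reached over their own start. The 30 bases around the RefSeq starts of Id3 and Ccdc85b are shown because these starts lay inside their regions. They are written along the strand of the gene (Id3 chr4:136143807-136143836, plus strand, Ccdc85b chr19:5457549-5457578, minus strand), and the capital marks the first transcribed base.
Id3: gctgcaggcgtgcgcGcactgtttgctgct
Ccdc85b: ccccggcgcgcgcccTgcctcgtgcccacc

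H3K9ac over 3' UTRs was weak compared with promoters and slightly below that of other distal regions. The class medians were compared within each library, with all classes limited to regions below 4000 bases. The 3' UTR median was 4.12, 4.2 and 4.34 CPM per kb in CD A, C and D, and 3.96, 4.49 and 4.16 in HFD A, B and D, a mean of 4.21 ± 0.185 (SD, n = 6). The diets overlapped. Promoter regions, those within 1000 bases of a start site (13592 regions), had 24.3 ± 0.532 CPM per kb, intronic regions (24580) had 4.57 ± 0.159 and intergenic regions (9341) had 4.89 ± 0.13. The 3' UTR level was thus 0.173 of the promoter level, a log2 difference of -2.53 (SD 0.087, range -2.64 to -2.41), and lower in 6 of 6 libraries. Against intronic regions the log2 difference was -0.12 (range -0.20 to -0.05) and against intergenic regions -0.22 (range -0.31 to -0.15), again lower in 6 of 6 libraries. In each of the 3 comparisons the exact two-sided sign-flip permutation test gave p = 0.0312 (0.0312 after adjustment over the 3), the smallest value that 6 libraries allow. The same regions were measured in each library, so these p-values reflect agreement between libraries and not the spread over regions. With levels not divided by length the differences from intronic and intergenic regions were -0.07 and -0.13 and no longer passed (exact permutation p = 0.0625 for each).

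**Figure D1:**
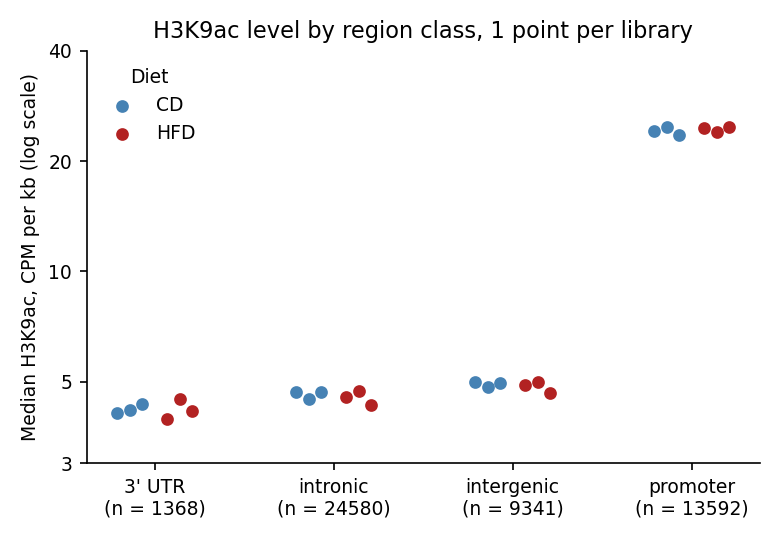
Median H3K9ac in CPM per kb (log axis) of the region classes, 1 point per library, CD blue and HFD red. All 6 points of the 3' UTR class lie between 3.96 and 4.49, below the intronic and intergenic points of the same library and far below the promoter points.

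Many 3' UTR regions stood close to other marked regions. The gap to the nearest other region was a median of 792 bases, and under 1 kb for 769 (56.2%). The same measure was 841 bases for intronic regions (54.5% within 1 kb), 1860 for intergenic regions (39.1%) and 5279 for promoter regions (30%).

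The mean count of a region had a median of 20 reads per library (quartiles 14.1 and 37, range 7.83 to 2096), which limits what can be seen in most of them. Levels spread over a narrow band, with quartiles of 3.53 and 4.97 CPM per kb, while the highest reached 54. The 6 with the highest levels were those of Tmem88b, a membrane protein (54 CPM per kb, chr4:155783433-155784843), Id3 (52.4), Ano8, of the anoctamin family (33.5, chr8:71475399-71477205), Id1, a relative of Id3 (32.6, chr2:152736077-152738528), Fam89b (29.1) and Vwa1, an extracellular matrix protein (28.9, chr4:155769474-155771083). All 6 exceeded the promoter median of 24.3 CPM per kb. The regions of Id1, Fam89b and Tmem88b had their own start at 1052, 1106 and 1735 bases from the middle. Those of Id1 and Fam89b, like that of Id3, held this start, so their levels include the mark at a start site. Tmem88b and Vwa1 lie beside each other on chromosome 4. The mark was high there while the RNA was low, with 1.39 ± 0.456 CPM in CD for Tmem88b and 0.499 ± 0.1 for Vwa1 (SD, n = 4). Of the 6, only the region of Id3 passed the diet test.

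The 6 genes with 4 regions each were Foxk1, a forkhead transcription factor, Cxcl12, a chemokine, Aff4, the scaffold of the super elongation complex, Hjurp, a histone chaperone of centromeres, Klf13, a Krüppel-like factor, and Rassf4, of the Ras-association domain family. Their regions spread over 3395 bases in Foxk1 to 7977 in Cxcl12. Within a gene, levels ran from 3.71 to 5.44 CPM per kb in Foxk1 and from 4.56 to 12.9 in Rassf4. All 4 regions of Hjurp were above 10 CPM per kb (10.3 to 16.7), and 2 of them also lay in the 3' UTR of Mroh2a. Of these 24 regions 0 passed the diet test with edgeR or with DESeq2, and 2 had an unadjusted p below 0.05. The closest was 1 of Klf13 (chr7:63887793-63888432), with 2.68, 2.92 and 2.08 CPM in CD and 5.96, 4.78 and 2.64 in HFD A, B and D. HFD D lay among the CD values, and the log2 change of 0.82 (SE 0.25) had an adjusted p = 0.0677, while the other 3 regions of Klf13 had changes of -0.37, 0.05 and 0.52.

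The diet comparison asks whether the mark over 3' UTRs followed the diet. In whole liver a change in the mark per cell and a change in the number of cells carrying it cannot be told apart. Together the regions held 0.564%, 0.558% and 0.576% of all H3K9ac counts in CD A, C and D and 0.542%, 0.574% and 0.541% in HFD A, B and D. The shares overlapped (0.566 ± 0.00923% and 0.552 ± 0.019%, SD, n = 3), and the exact two-sided permutation test gave p = 0.3, where 0.1 is the smallest possible.

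By the quasi-likelihood test of edgeR, adjusted over all regions by Benjamini and Hochberg's method, 23 of the 1368 regions passed the threshold of 0.05 (1.68%, against 2.39% of all 57499 regions). In HFD 6 were higher (0.439%, against 0.835%) and 17 lower (1.24%, against 1.55%). The libraries of the 2 diets did not overlap in any of the 23, nor in 190 of all members (13.9%, against 15.4% of all regions). At an unadjusted p below 0.05 there were 118. The median log2 change of HFD over CD was -0.01 (quartiles -0.25 and 0.21), beside -0.00 (-0.20 and 0.18) over all regions, and the median SE was 0.32 beside 0.27. The count was 17 with DESeq2, all 17 among the 23 (1.24%, against 1.41% of all regions). Leaving out CD C gave 15 (1.1%, against 1.44%) and leaving out HFD A gave 12 (0.877%, against 1.52%). Without HFD B there were 11 (0.804%, against 0.981%) and without HFD D 29 (2.12%, against 3.24%). The share over all regions thus also moved between these fits. The authors' deposited table called 27 of the regions at the same threshold (2.4% of all regions were called there), and 22 of these were among the 23.

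Calls were more frequent in regions with more reads and in longer ones, among the members as among all regions. Of 1107 regions with a mean below 50 reads, 4 passed (0.361%, against 0.924% of all regions in that range), of 132 with 50 to 100 reads 7 passed (5.3%, against 4.1%), and of 129 with more 12 passed (9.3%, against 5.25%). Of the 738 regions under 500 bases 0 passed with edgeR or DESeq2 (24 had an unadjusted p below 0.05), beside 0.636% of all regions of that length. Of the 389 with 500 to under 1000 bases 6 passed (1.54%, against 2.14%), and of the 241 longer ones 17 passed (7.05%, against 4.83% of all regions of 1000 to under 4000 bases). The median size of the change, ignoring its sign, was 0.28 in the shortest group and 0.17 in the longest.

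**Figure D2:**
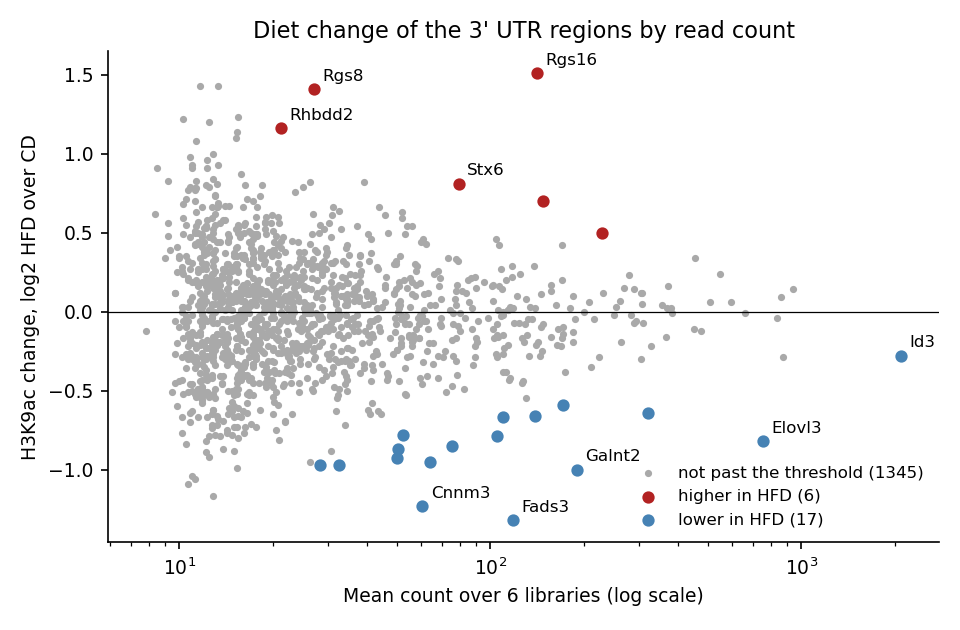
Mean count over the 6 H3K9ac libraries (log axis) and log2 change of HFD over CD for each of the 1368 regions, with the 6 higher regions in red and the 17 lower ones in blue. The cloud narrows to the right, and only 4 coloured points lie below 50 reads.

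The largest increase was in the 3' UTR of Rgs16, a regulator that speeds up GTP hydrolysis by G proteins (chr1:153742793-153745231). It had 6.43, 7 and 6.53 CPM in CD A, C and D and 19.7, 23.3 and 13.5 in HFD A, B and D. Every HFD value lay well above every CD value, and the log2 change was 1.51 (SE 0.17, adjusted p = 2.01e-09). Rgs8, a second gene of the same family near Rgs16 on chromosome 1, gained the mark over its 3' UTR too (chr1:153692615-153693321). It went from 1.25, 1.08 and 1.78 CPM to 4, 4 and 2.75, a log2 change of 1.41 (SE 0.28, adjusted p = 8.67e-04). Further risen regions lay between these 3' UTR regions (up to chr1:153703991). Whether the gains of Rgs8 and Rgs16 are separate was not tested. In both genes HFD D was the lowest of the HFD libraries.

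A region of Rhbdd2, a rhomboid-like membrane protein, rose on few reads (9 to 33 per library), from 1.7, 0.75 and 1.19 CPM to 2.81, 2.87 and 2.42, with a log2 change of 1.16 (SE 0.32, adjusted p = 0.0286). The strongest 3' UTR region of the same gene (chr5:135642994-135644209, mean count 78.7) did not pass. It had 6.43, 7.33 and 5.15 CPM in CD and 9.96, 8.6 and 4.83 in HFD (0.32, SE 0.20, adjusted p = 0.622 by edgeR's test). Stx6, a SNARE of endosome-to-Golgi traffic, rose from 5.81, 4.92 and 4.95 to 10.2, 10.4 and 6.7 CPM (log2 change 0.81, SE 0.19, adjusted p = 0.00719). Efhd2, a calcium-binding protein, rose from 10.6, 11.3 and 8.71 to 20.4, 14.9 and 14.5 CPM (0.70, SE 0.16, adjusted p = 0.00382). In Kmt2a, a histone H3 lysine 4 methyltransferase, CD values of 19.7, 17.8 and 14.1 CPM stood against 21.2 to 26.1 in HFD (0.50, SE 0.13, adjusted p = 0.0212), so the diets came within a small step of each other.

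Lower regions included those of Elovl3 and Fads3. Over Elovl3, an elongase of very long saturated and monounsaturated chains (chr19:46133714-46137550), CD A, C and D had 80.1, 97 and 84.5 CPM and HFD A, B and D had 47.3, 51.3 and 50.1. The diets were far apart relative to their spread, and the log2 change was -0.82 (SE 0.09, adjusted p = 4.92e-10). Over Fads3, a member of the fatty acid desaturase family (chr19:10058738-10059443), values went from 18.2, 14 and 13.5 CPM to 6.13, 7.21 and 4.72. This was the largest decrease, with a log2 change of -1.32 (SE 0.18, adjusted p = 2.45e-07).

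Cnnm3, of a family tied to magnesium transport, fell from 6.88, 7.33 and 9.11 to 3.24, 2.35 and 4.5 CPM (-1.23, SE 0.22, adjusted p = 1.05e-04). Galnt2, an enzyme that starts mucin-type O-glycosylation, fell from 21.4, 23.6 and 24.4 to 12.3, 10.8 and 11.5 CPM (-1.0, SE 0.14, adjusted p = 4.14e-07). Both had no overlap between diets, and in Galnt2 the values within a diet were close together. Tcf7l1, a transcriptional repressor of the Wnt pathway, went from 11.7, 13.2 and 11.4 to 6.39, 7.73 and 6.81 CPM (-0.79, SE 0.17, adjusted p = 0.00232). Kdm4a, a histone demethylase, went from 36.4, 40.8 and 29.7 to 24.3, 20.1 and 24.3 CPM (-0.64, SE 0.12, adjusted p = 2.03e-04).

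Smaller or less deeply covered decreases made up the rest. Gstm4, a glutathione S-transferase, fell by 0.97 on the log2 scale (SE 0.27, adjusted p = 0.0293) on 17 to 44 reads per library. Arl10, a small GTPase, fell by 0.97, Spcs2, a signal peptidase subunit, by 0.95, St5, a regulator of Rab GTPases, by 0.93, and Serpina12, which encodes the adipokine vaspin, by 0.87. The regions of Irgq (-0.85), Rprd1b (-0.78), Slc12a5 (-0.66) and Armc6 (-0.59) also passed. A region shared by the facing ends of Rad9a, a DNA damage checkpoint protein, and Ppp1ca, a catalytic subunit of protein phosphatase 1, fell by 0.67 (SE 0.17, adjusted p = 0.0153). Its reads cannot be assigned to either gene. Over Id3 the mark went from 214, 219 and 197 CPM to 164, 167 and 187, the smallest of the 23 changes (-0.28, SE 0.07, adjusted p = 0.0178).

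**Figure D3:**
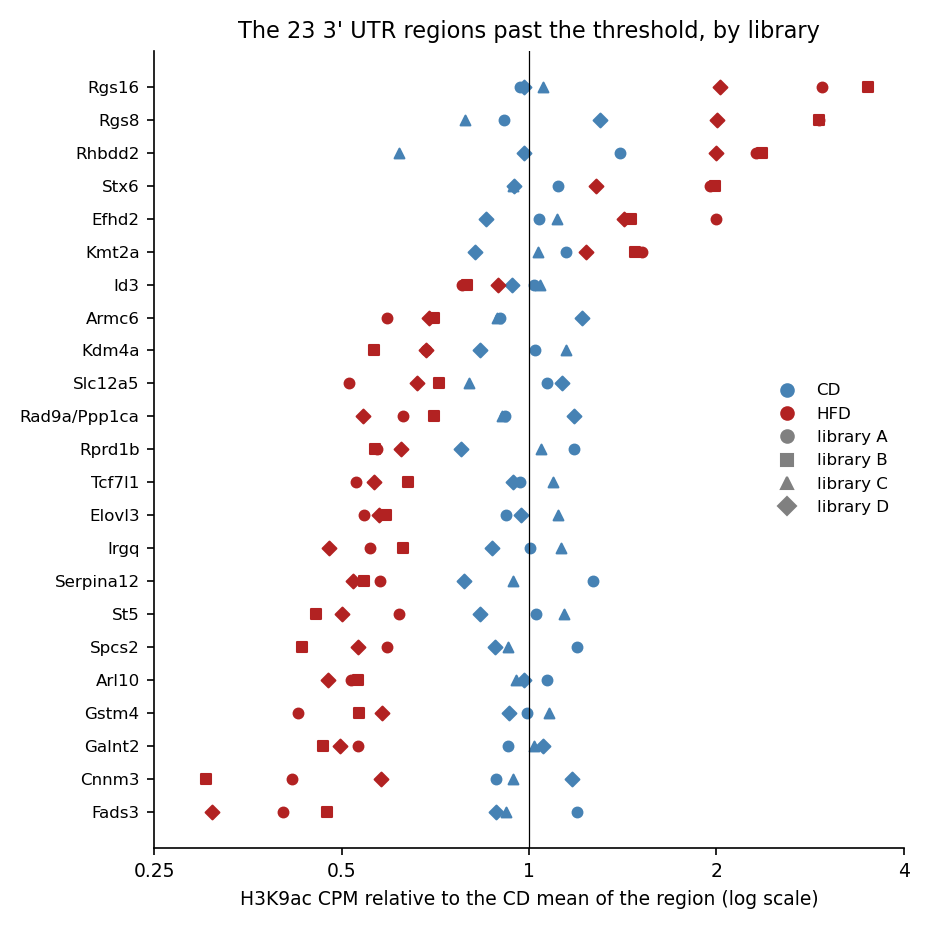
H3K9ac CPM of each library relative to the CD mean of the region (log axis) for the 23 regions that passed, ordered by change, CD blue and HFD red, with symbols for the library letters. In every line the red and blue points are separate, by a wide step for Rgs16, Elovl3, Galnt2 and Fads3 and by a narrow one for Id3 and Kmt2a.

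Of the 23 calls, 8 held whichever library was left out: Rgs16, Rgs8, Fads3, Cnnm3, Galnt2, Elovl3, Tcf7l1 and Kdm4a. The other 15 were lost in at least 1 such fit by edgeR's test. Gstm4 was lost without any 1 of CD A, CD C, CD D, HFD A and HFD B, with adjusted p up to 0.211. Those of Arl10, Id3 and Rprd1b were lost without CD A, CD C, HFD A or HFD B (up to 0.106, 0.232 and 0.232), and those of Kmt2a and Rhbdd2 without CD C, CD D, HFD A or HFD B (up to 0.224 and 0.266). Armc6 and the Rad9a and Ppp1ca region were lost without CD D, HFD A or HFD B (up to 0.207 and 0.154), Stx6 without CD C, HFD A or HFD B (up to 0.161), and Slc12a5 without CD A, CD D or HFD A (up to 0.154). Serpina12 was lost without CD A or HFD B (up to 0.225), and St5 without CD C or HFD B (up to 0.141). Efhd2 was lost without HFD A (0.169), Irgq without CD C (0.0696) and Spcs2 without HFD B (0.0953).

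Within 20 kb, 12 of the 23 had another region past the threshold (52.2%, against 48.8% of all regions that passed), and in 12 of 12 all such neighbours had the same sign (97.8% over all regions that passed and had such a neighbour). Both shares were near those of all called regions. Around Rgs16 the mark rose at its promoter (chr1:153740099-153741453, log2 change 1.25, SE 0.12), just downstream of it (1.77, SE 0.19) and past the gene's end (1.59, SE 0.27). Beside Rgs8, 4 more regions rose by 0.87 to 1.33. Efhd2 also had 4 others, with changes of 0.32 to 0.88 that included its promoter. At Fads3, 2 regions before the 3' UTR fell (-1.18, SE 0.16, and -0.70, SE 0.14), and at Serpina12 1 close by fell by 1.27 (SE 0.18). At Elovl3 a short region inside the gene fell by 1.85 (SE 0.41). All of these passed with edgeR, with adjusted p of at most 0.0205.

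Genes with a region in the 3' UTR and another at the promoter were compared with genes that had only a promoter region, to see whether their RNA level differed. The deposited log2 FPKM medians were 2.55 over 880 genes with a 3' UTR region and 2.44 over 9221 without, a difference of 0.11 (SD 0.04, range 0.06 to 0.19) that was positive in 8 of 8 RNA libraries. The exact two-sided sign-flip permutation test gave p = 0.00781, the smallest that 8 libraries allow. The same genes were compared in each library, so this p-value reflects agreement between libraries and not the spread over genes. The host genes were longer, with a median exonic length of 3499 against 2959 bases, and the part of length in the difference was not tested. With RNA levels not divided by length the difference was 0.36, and over all listed genes, with or without a promoter region, it was 0.26, both positive in 8 of 8 libraries. Host genes sat in the middle of the RNA range, at a median percentile of 53.8 (quartiles 32.3 and 74.3). Across the 880 genes the level of the 3' UTR region had a Spearman correlation of 0.08 with RNA level, beside 0.43 for the promoter region. Both are descriptions across genes, which are not replicates and come from the same libraries.

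Of the 1212 host genes, 1053 were listed in the RNA table, and 120 of them passed the diet test (11.4%, against 7.27% of all 12334 genes). In HFD 60 were higher (5.7%, against 3.63%) and 60 lower (5.7%, against 3.64%). Leaving out 1 library lowered at least 1 of these counts by over 1.5 times for HFD B (30 and 27), CD A (37 and 38), CD B (36 and 37) and CD C (35 and 40). Without CD D they were 46 and 40, without HFD A 61 and 70, without HFD C 62 and 43 and without HFD D 50 and 65, while DESeq2 called 88 and 93. The shares over all genes in these fits are not given here, so the excess of host genes was not compared in them. Among genes with a promoter region, host genes also had more RNA reads (log2 difference 0.36 when not divided by length). The part of read number in the share called was not tested.

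Regions of genes with lower RNA leaned the same way. Of 70 such regions, 51 had a negative H3K9ac change (72.9%, against 51.5% of all members), with a median of -0.19 (quartiles -0.42 and 0.05), and 6 passed as lower (8.57%). Of 77 regions in genes with higher RNA, 46 had a positive change (59.7%), with a median of 0.08 (quartiles -0.19 and 0.22), and 1 passed as higher. The 1060 regions of genes whose RNA did not pass had a median of -0.01, with 4 higher and 11 lower (1.42%). Over every alternative fit of the H3K9ac data the 3 medians stayed within -0.27 to -0.13, 0.01 to 0.12 and -0.06 to 0.03. These are counts over regions, which are not replicates, and no test was made of them. The same shares over regions outside 3' UTRs are not given here, so the lean is not shown to be particular to 3' UTRs.

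The 7 genes in which the region and the RNA both passed moved the same way in both. How often this holds for called regions of other kinds is not given here. Rgs16 RNA had 2.27, 0.346, 2.2 and 14.8 CPM in CD A to D and 115, 175, 51.6 and 37.5 in HFD A to D. The diets did not overlap, though CD D stood well above the other CD libraries, and the log2 change was 4.28 (SE 0.90, adjusted p = 0.0164), lost without CD A or CD C (adjusted p = 0.0563 and 0.0564). Elovl3 RNA had 967, 823, 917 and 801 CPM in CD and 174, 112, 278 and 157 in HFD, with a log2 change of -2.28 (SE 0.24, adjusted p = 4.22e-04). Every HFD value lay far below every CD value.

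Id3 RNA went from 65.3 ± 19.2 CPM in CD to 24.9 ± 8.38 in HFD (SD, n = 4), a log2 change of -1.39 (adjusted p = 0.00717) and St5 RNA from 64.6 ± 8.75 to 30.5 ± 4.94 (-1.08, adjusted p = 0.00106). Gstm4 fell from 73.3 ± 11.9 to 38.4 ± 8.56 CPM (-0.93, adjusted p = 0.00807), with the limit that reads of the similar Gstm genes may be split between them. Fads3 fell from 3.57 ± 0.359 to 1.96 ± 0.317 CPM (-0.87, adjusted p = 0.0123) and Irgq from 32.2 ± 2.29 to 21.7 ± 3.32 (-0.57, adjusted p = 0.0187). The diets did not overlap in any of these 5. The call of Irgq was lost without CD A, CD C, CD D or HFD B, with adjusted p of 0.053 to 0.0584.

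The other called regions lay in genes whose RNA did not pass by edgeR's test, apart from Rgs8, which was not listed in the RNA table. With DESeq2 the RNA of 4 of these genes did pass, Galnt2 (adjusted p = 0.0126), Kdm4a (0.0246), Efhd2 (0.0258) and Arl10 (0.0288). With edgeR, Galnt2 passed under the median count filter (adjusted p = 0.0388), Arl10 with the library letter as a block (0.0411) and Efhd2 without HFD C (0.0148). With all libraries, Galnt2 RNA had 47.1 ± 4.09 CPM in CD and 36.6 ± 3.06 in HFD (SD, n = 4, log2 change -0.36, adjusted p = 0.0606) and Kdm4a 38.9 ± 1.82 and 30.8 ± 3.55 (-0.34, adjusted p = 0.0843). Efhd2 RNA had 26.5 ± 1.61 and 39.1 ± 9.93 (0.56, adjusted p = 0.074). For Stx6 the values were 8.67 ± 1.07 and 8.07 ± 0.701 (-0.10, adjusted p = 0.743) and for Tcf7l1 9.31 ± 0.708 and 7.83 ± 1.72 (-0.25, adjusted p = 0.46). In the same RNA libraries the summed level of 10 hepatocyte markers was 107248 to 120338 CPM in CD and 123217 to 145754 in HFD, with 2 of the 10 higher by the test. The sums overlapped for endothelial (156 to 213 and 125 to 254), Kupffer (115 to 164 and 85.9 to 236), stellate (263 to 310 and 189 to 401), cholangiocyte (57.7 to 68.5 and 35.5 to 61) and lymphocyte markers (3.3 to 5.73 and 4.16 to 5.9). Of the 5 listed cholangiocyte markers 1 was lower by edgeR's test. Their part in these results was not tested.

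**Figure D4:**
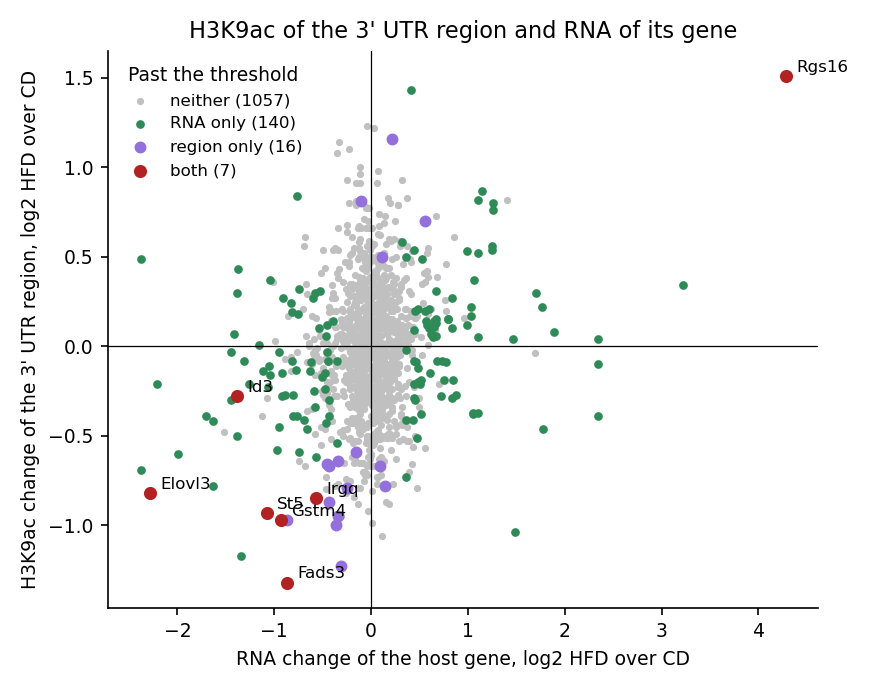
RNA change of the host gene (horizontal) and H3K9ac change of the 3' UTR region (vertical), both log2 HFD over CD, 1 point per pair of region and gene, coloured by which of the 2 passed the threshold. The 7 labelled genes passed in both, Rgs16 at the upper right and 6 at the lower left.

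To see whether a 3' UTR changed apart from its promoter, the strongest 3' UTR region of a gene was set against its strongest promoter region in 972 genes that had both. The 3' UTR region had the lower level in 927 of them, with a median log2 ratio of -2.86. The diet change of the ratio, tested with limma, passed in 7 genes (0.72% of the 972, with 80 at an unadjusted p below 0.05), 6 lower and 1 higher. For Elovl3 the promoter region had 12.1, 11.6 and 8.71 CPM in CD A, C and D and 12.7, 10.9 and 7.69 in HFD A, B and D. It overlapped between diets (log2 change -0.04, SE 0.17), and the ratio changed by -0.74 (SE 0.13, adjusted p = 1.03e-05). Elovl3 was also one of 45 genes with more mark per kb in the 3' UTR region than at the promoter (17.8 and 8.75 CPM per kb). Its 3' UTR region was 3837 bases long, with the middle 61 bases before the gene's end. It therefore reached well past that end, and its level is not that of the 3' UTR alone.

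The ratio fell in Fads3 (-1.01, SE 0.19, adjusted p = 5.34e-05), where the promoter had -0.30 (SE 0.12). It fell in Galnt2 (-0.84, SE 0.17, adjusted p = 2.29e-04), Cnnm3 (-0.99, SE 0.22, adjusted p = 0.00228) and Kdm4a (-0.56, SE 0.15, adjusted p = 0.0324), with promoter changes of -0.16, -0.21 and -0.07. In Stx6 it rose by 0.82 (SE 0.21, adjusted p = 0.0114), with -0.06 at the promoter. Slc16a5, a monocarboxylate transporter family member, was the reverse case. Its promoter had 10, 11.2 and 15.8 CPM in CD and 30.7, 37.4 and 19.1 in HFD, a rise of 1.25 (SE 0.16, adjusted p = 3.52e-08), while its 3' UTR region had 3.3, 1.83 and 2.57 in CD and 3.41, 2.35 and 2.31 in HFD (0.08, SE 0.27). The ratio changed by -1.13 (SE 0.27, adjusted p = 0.00816).

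Of these 7, the ratio calls of Elovl3, Fads3 and Galnt2 held whichever library was left out. With HFD B left out, the calls of Cnnm3 (adjusted p = 0.157), Slc16a5 (0.328), Stx6 (0.178) and Kdm4a (0.488) were lost and 4 genes passed in all, and with HFD D left out 11 passed. The Slc16a5 call was also lost without CD A (0.383), that of Stx6 without CD C, CD D or HFD A (0.128, 0.124 and 0.193), and that of Kdm4a without CD A, CD C, CD D or HFD A (0.274, 0.217, 0.0768 and 0.12). With all regions of a gene summed, 14 genes passed, the 7 among them. In Rgs16 promoter and 3' UTR rose by 1.25 and 1.51, and the difference of 0.21 (SE 0.18) did not pass (adjusted p = 0.867 by limma).

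**Figure D5:**
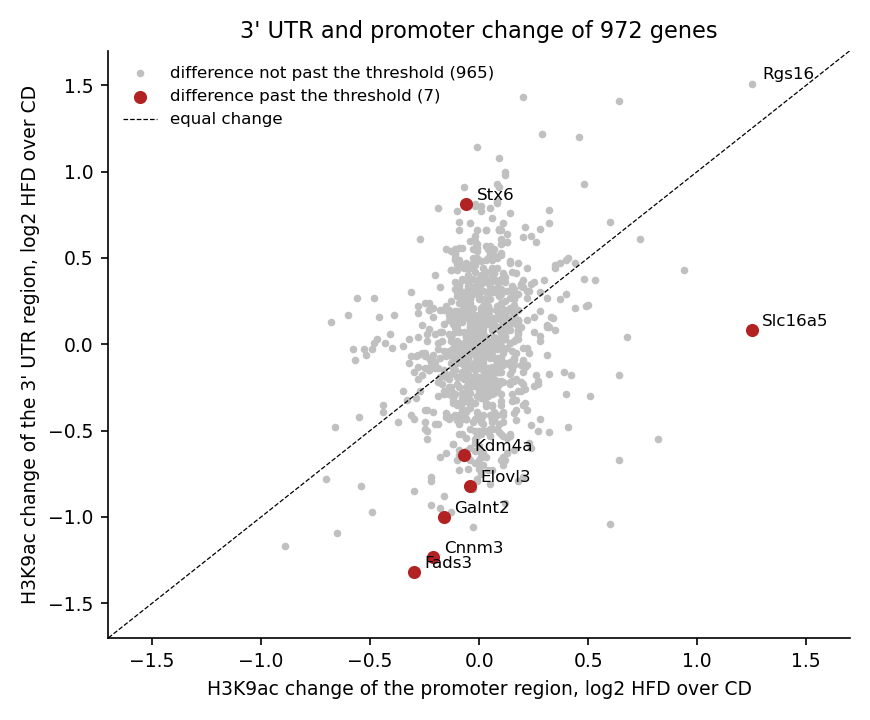
Diet change of the promoter region (horizontal) and of the 3' UTR region (vertical) of 972 genes, log2 HFD over CD, with equal change as a dashed line. The 7 genes whose 2 changes differed by limma are red, with 5 of them below 0 near the vertical axis, Stx6 above it and Slc16a5 far to the right.

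The 10 pathway and regulator lists were searched for members with a 3' UTR region, and 0 of the 28 regions found passed by edgeR's test or by DESeq2, with 0 at an unadjusted p below 0.05. Clock genes had 4 such regions among 18 genes. Over Per2, a core clock repressor, the mark had 1.16, 0.917 and 1.39 CPM in CD and 0.852, 0.869 and 0.769 in HFD (log2 change -0.46, SE 0.48), while Per2 RNA rose by 1.77 (SE 0.25, adjusted p = 0.00205). The 3 regions of Tef, a clock-controlled bZIP factor, had changes of -0.39, -0.10 and 0.04 beside an RNA rise of 2.34 (SE 0.20, adjusted p = 1.32e-04). With 6 to 38 reads per library and SE of 0.24 to 0.48, changes of moderate size in these regions were not detectable.

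In cholesterol synthesis and uptake, the genes with regions included Hmgcs1 (0.43, SE 0.47) and Sc5d (-0.28), while 15 of the 24 listed genes, Hmgcs1 among them (-1.38, SE 0.20), had lower RNA. Lipogenesis and lipid droplet genes had 5, over Plin4 (0.29), Scd1 (0.23), Dgat2 (0.21), Gpam (0.21) and, outside the naming rule, Fasn, of which Dgat2, the last enzyme of triglyceride synthesis, had higher RNA (0.60, adjusted p = 0.0231, lost without CD A, CD B or HFD B, up to 0.0898). In fatty acid oxidation there were 2, of which that in the receptor gene Ppara had a change of 0.53 (SE 0.40), and Ppara RNA rose by 0.99 (SE 0.13, adjusted p = 0.00116). Sds, for serine dehydratase, had a region change of 0.22 and an RNA rise of 1.76 (adjusted p = 0.0086).

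Immediate early genes with a region were Btg2 (0.32), Atf3 (0.32), Klf6 (0.23) and Fosb (-0.19). Btg2 RNA fell by 0.75 (adjusted p = 0.0238, lost without CD A, CD C, CD D or HFD B, up to 0.0753). The other listed genes with a region included the liver transcription factor genes Foxa3 (0.56) and Hnf4a (-0.09 and -0.04), the stress regulator Xbp1 (-0.35), the nuclear receptor gene Nr1i3 in a region shared with Tomm40l (0.47) and the fibrinogen gene Fga (0.31). Fga RNA fell by 0.53 (adjusted p = 0.0263, lost without CD A, CD B or HFD B, up to 0.0909).

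The members nearest to the limits of the rule included those of Csrnp1 (3839 bases) and Elovl3 (3837) in length, and those of Fam178a (1006 bases from a start), Sec16a (1035) and Tcap (1049) in distance. Just outside lay regions shared by Hcfc1r1 and Tnfrsf12a (4347 bases long), in Amigo3 (4499) and in Ndufa4l2 (4521), and those of Raver1 (974 bases from a start), Nicn1 (972) and Sidt2 (963). The outer ones by length had 17.9, 5.35 and 9.43 CPM per kb, and the outer ones by distance 4.1, 4.65 and 6.01.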

How the data were processed

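H3K9ac was measured in 3 liver libraries per diet and RNA in 4. Per the file headers, the authors deposited raw counts per region and per gene, log2 CPM or log2 FPKM values, and for HFD against CD a log2 fold change, a p-value and a false discovery rate. Per the submitters' processing notes the reads were placed on mm10. The sources used here give no aligner, peak caller, read counter, strand use or test. The H3K9ac table had 57571 lines, and 71 regions listed more than once were counted once. From the RNA file 4999 blank lines were left out, and 0 value columns were unmatched to a library. No 2 libraries were alike within sampling noise (chi-square per degree of freedom at least 1.49 for H3K9ac and 32 for RNA).

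Diets were compared with edgeR 4.0.16 (R 4.3.3): TMM scaling, filterByExpr (which removed nothing), glmQLFit and glmQLFTest with diet as the only term, two-sided, p-values adjusted by Benjamini-Hochberg over all regions or genes, threshold 0.05. Levels are CPM after TMM scaling, means are ± SD, and changes are log2 HFD over CD with SE. The ratio of 3' UTR to promoter region was tested with limma 3.58.1 on log2 CPM with a prior count of 2, adjusted over the genes with both. Class levels used exact sign-flip permutation over libraries (scipy 1.17.1). Each script was tested on simulated data. Alternatives were DESeq2 1.42.0, RLE factors, library totals, a filter at the median count, other limits for the members, a prior count of 0.5, a replicate block and leaving out each library.

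The members and lists were chosen with earlier results of these data known. Named regions were the called non-overlapping ones, the 6 highest in CPM per kb, the genes with most regions, up to 4 members per list, genes called in the ratio test and those next to the limits of the rule. Some genes that this rule names are not reported here. A whole genome sequence was not used here. The only sequences printed, 30 bases around the starts of Id3 and Ccdc85b, came from RefSeq promoter sequences on GRCm38.p6, the assembly that mm10 represents.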

Additional observations from a re-analysis of the deposited data

Results flagged for a closer look

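For the genes named above, each RNA group of 4 libraries was checked for 1 library far from the other 3, and 5 of 66 groups had one. Chance alone gives about 1 in 20 groups. In CD D, Rgs16 RNA was 14.8 CPM, where the other CD libraries had 0.346 to 2.27. In CD B, Cnnm3 RNA was 17.5 CPM, below the 21.4 to 22.2 of the others. Serpina12 RNA was 90.3 CPM in HFD A, against 62.8 to 66.2 in the other HFD libraries, and Slc12a5 RNA was 1.61 CPM in HFD D, against 0.995 to 1.07. Rhbdd2 RNA was 11.9 CPM in CD A, against 11.3 to 11.4, a small step in a tight group. The H3K9ac groups have 3 libraries each and were not checked in this way.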

How the results depend on the processing

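The 6 higher and 17 lower regions stayed 6 and 17 with RLE factors and library totals, and were 5 and 12 with DESeq2. A fit with no filter was the main fit itself, since the filter removed nothing. With a filter at the median count, which tested fewer regions, 3 were higher. Leaving out each library gave 2 to 10 higher and 8 to 19 lower. In those fits the called share of all regions ran from 0.981% (without HFD B) to 3.24% (without HFD D). For host genes with RNA changes, leaving out a library gave 30 to 62 higher and 27 to 70 lower, DESeq2 gave 93 lower and the median filter 36 lower. The shares over all genes in these fits are not given here. The ratio test called 14 genes with all regions of a gene summed and 4 to 11 with a library left out. Levels against intronic and intergenic regions were -0.07 and -0.13 when not divided by length. Without 1 library the differences from promoter, intronic and intergenic regions were -2.55 to -2.51, -0.13 to -0.10 and -0.23 to -0.20, where 5 libraries cannot give an exact p below 0.0625. The cause of these shifts was not tested.

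Letters shared between diets were not taken to pair the libraries. For H3K9ac the correlation of deviations was 0.09 and 0.08 for A and D, above the -0.12 to 0.05 of unlike letters. For RNA it was 0.29, 0.06, 0.23 and -0.22 for A to D, within the -0.41 to 0.37 of unlike letters. So few pairs cannot settle whether the letters pair the libraries. With the letter as a replicate block, 4 regions were higher and 16 lower (together 1.46%, against 2.22% of all regions), with 17 of the 23 among them. With that block 50 host genes had higher and 59 lower RNA, and the ratio test called 5 genes, 3 of them among the 7. The ratio calls of Cnnm3 (adjusted p = 0.151 by limma), Slc16a5 (0.193), Stx6 (0.432) and Kdm4a (0.684) were lost.

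Changes of uncalled regions near 0 turned sign in some fits: under the replicate block Klf6 (-0.12) and Sds (-0.00), and with a library left out Klf6 (-0.07 to 0.48), 1 region of Tef (-0.11 to 0.14), Gpam (-0.16 to 0.84) and both of Hnf4a (-0.18 to 0.04 and -0.28 to 0.15). Most regions hold about 20 reads per library, so modest changes were not detectable there.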
